A study of Schizosaccharomyces pombe with 4 samples.

Results

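The 10 glycolysis and fermentation genes of fission yeast described here are fba1, tpi1, tdh1, gpd3, pgk1, gpm1, eno101, pyk1, pdc101 and adh1, out of 5113 nuclear protein-coding genes in the RefSeq annotation of assembly ASM294v3. They were listed by name for their place in the pathway, and a read was counted for a gene when it lay on that gene's strand and shared more aligned bases with it than with any other gene. All 10 had reads in every library, from 4 reads of gpd3 in 1 library to 900 reads of tdh1 in another. Of the 10, gpd3 has 1 annotated intron and the other 9 have none.

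Glycolysis converts glucose to pyruvate in the cytosol, and alcoholic fermentation converts pyruvate to ethanol and regenerates the NAD+ that glycolysis uses. Fission yeast on glucose ferments even with oxygen present, and the enzymes of the lower pathway are among the most abundant proteins of the cell. Nascent RNA is RNA still held by RNA polymerase on chromatin, so the 5′ end of a full nascent molecule lies at the start of transcription and its 3′ end at the position of the polymerase.

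Schizosaccharomyces pombe nascent RNA was read as long cDNA molecules in 4 libraries. At 30 °C, wild-type cells in exponential growth in complete medium (YES) gave 2 libraries, replicate 1 from strain L972 (Wild-type h-) and replicate 2 from strain SP286 (prp5::KanMx-prp5-WT, h+), so these replicates differ in strain and mating type. At 37 °C, 1 library came from strain L972 and 1 from strain prp2-1 (leu1.32 prp2-C387Y), both grown at 26 °C and then moved to 37 °C for 2 h. U2AF, a splicing factor that marks the 3′ ends of introns, has its large subunit encoded by prp2. The prp2-1 strain also carries the leu1.32 allele, which the labels give for no other library. Temperature was thus compared together with the earlier growth temperature, the shift and, as given below, the sequencing cells. The effects of these cannot be told apart.

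Aligned reads numbered 123756 in 30 °C replicate 1, 45318 in replicate 2, 32176 in L972 at 37 °C and 33746 in prp2-1, and protein-coding genes took 50.1%, 71.3%, 80.7% and 74.3% of them. The 10 genes held 2696, 769, 1253 and 1657 reads in the same order. Reads were longer at 37 °C: the median genomic span of reads of the 10 genes was 384.5 nt in replicate 1, 578 nt in replicate 2, 1141 nt in L972 at 37 °C and 1079 nt in prp2-1. The same order held over all protein-coding reads, with medians of 365, 546, 991 and 886 nt. Of the reads of the 10 genes, 15.5%, 6.76%, 26.8% and 25.8% repeated the exact alignment of another read of their library. Both 37 °C libraries were read in the same 6 sequencing cells, which neither 30 °C library shared, and 3769 read names occurred in both 37 °C files. The prp2 gene itself had 7, 5, 7 and 4 reads, which does not check the labelled point mutation.

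The promoters of the 10 genes are shown first because the placing of read starts is described gene by gene. Each line gives the bases from 50 to 21 nt before the gene's most used read start over all libraries. In gpd3 and pgk1 that start lies 1 nt downstream of the annotated one. The bases are from the RefSeq ASM294v3 genome, 5′ to 3′ on the gene's strand, with TATAAA or TATATA in capitals.
fba1 (II:1688271-1688300, plus strand): aactccggctccatggTATATAatagaggg
tpi1 (III:939863-939892, plus strand): tccgctacgtTATATATAatgagcggacgg
tdh1 (II:2807545-2807574, plus strand): gggatggaaaggTATAAAtagaggcaggcg
gpd3 (II:578068-578097, plus strand): gcgtaaacacatacaaTATAAAtaggagtg
pgk1 (II:4159481-4159510, minus strand): taattggggTATAAAtatgaggccaaggtg
gpm1 (I:5174675-5174704, minus strand): aattctatgaacttccTATATAAAggatgg
eno101 (II:2201146-2201175, plus strand): ttcctccaggTATATATAgagtggaagggc
pyk1 (I:3846696-3846725, minus strand): agttacatttcccggccttTATATAcaggc
pdc101 (I:103618-103647, minus strand): gcctgactcaaaaacaTATATATATAcaca
adh1 (III:1591242-1591271, plus strand): ctcccatggTATAAAtagtgggtggtggac

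All 10 windows held TATAAA or TATATA on the gene's strand. With windows placed by the annotated start this also held for all 10, against 532 of the 4512 protein-coding genes with an annotated 5′ leader (11.8%). TATAAA was found in 5 of the 10 and TATATA in 6, since gpm1 holds both in 1 overlapping run. The first base of the motif lay between 41 and 31 nt before the most used read start. On the other strand 6 of the 10 windows held one of these motifs, against 10.3% of all genes, and TATATA reads the same on both strands. The motif and the window were chosen after these sequences were seen, and a match is a description of the letters alone.

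The most used read start of each of the 10 genes lay at the annotated start or 1 nt from it. The share of all 4 libraries' reads that began within 10 nt of the annotated start ran from 47.0% in eno101 and 56.7% in fba1 to 88.3% in adh1 and 89.5% in gpd3. The next lines show 10 bases on each side of the most used read start, with that first base in capitals, from the same genome and strand.
fba1 (II:1688311-1688331, plus strand): ctgttgcagtAtcatacttcc
tpi1 (III:939903-939923, plus strand): gtctctccccAactacatttc
tdh1 (II:2807585-2807605, plus strand): tcgcttctgtAtagatcattc
gpd3 (II:578108-578128, plus strand): ctgcttctttGtagtatcaag
pgk1 (II:4159450-4159470, minus strand): agccttctgtAaagacaaatc
gpm1 (I:5174644-5174664, minus strand): ctgcaaagctGctaacgtaaa
eno101 (II:2201186-2201206, plus strand): gacttgtttcAgtaagaatca
pyk1 (I:3846665-3846685, minus strand): ccaaaaaggtAcctctaccaa
pdc101 (I:103587-103607, minus strand): ggggcagaatAccaaagttgc
adh1 (III:1591282-1591302, plus strand): gcttttctttAagcaagagaa

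In 8 of the 10 genes the most used first base was the annotated one, and in gpd3 and pgk1 it lay 1 nt downstream. It was a purine after a pyrimidine in 10 of 10 genes. At the annotated first base itself this held for 8 of the 10 genes, against 93.9% of all genes with a leader. The base was A in 8 genes and G in gpd3 and gpm1.

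Over the pooled libraries, 84.3% of the 2073 adh1 reads began at exactly 1 base, and so did 85.7% of the 133 gpd3 reads. The share at the most used base was 67.2% for gpm1, 65.5% for pyk1, 65.3% for tdh1 and 53.8% for pgk1. Starts were more spread in the other 4 genes. The most used base took 45.7% of reads in tpi1, 39.6% in fba1 and 37.0% in pdc101. It took 13.7% of the 313 reads in eno101, where 36 reads began 3 nt downstream and 26 reads 5 nt upstream of it. The second most used start of fba1 and gpm1 also lay 3 nt downstream of the first, and that of pdc101 lay 2 nt upstream.

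**Figure D1:**
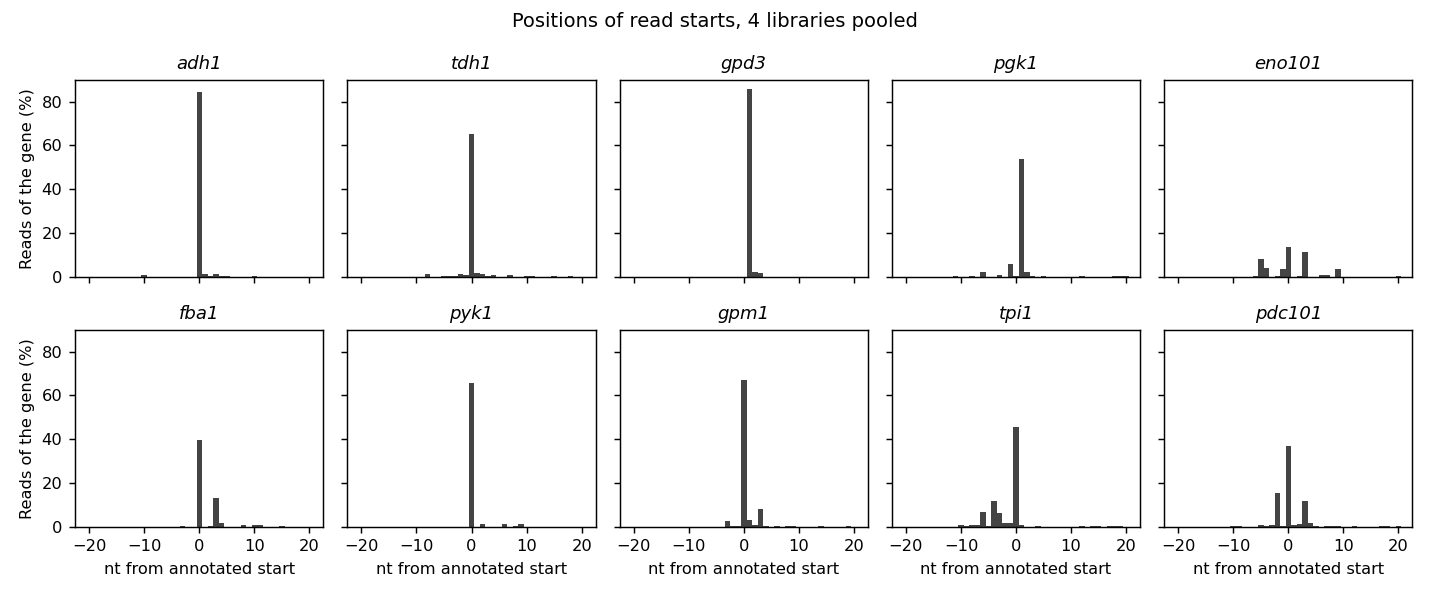
Positions of read starts of the 10 genes, 4 libraries pooled. The x axis is the distance in nt from the annotated start and the y axis the percentage of the gene's reads that begin there. A single base takes 84.3% of adh1 reads and 85.7% of gpd3 reads, while eno101 starts are spread with 13.7% at the most used base.

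How much of the nascent RNA of each library came from these genes is given next, in pathway order, as the percentage of reads of protein-coding genes. A 95% Wilson interval is given where a single library's share matters, and it covers counting error only.

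Fructose-bisphosphate aldolase, which splits the 6-carbon sugar into a pair of 3-carbon sugars, is encoded by fba1. It had 105 reads (0.169%) in 30 °C replicate 1, 38 (0.118%) in replicate 2, 33 (0.127%) in L972 at 37 °C and 69 (0.275%) in prp2-1. The prp2-1 library was the highest and the other 3 lay close together. Triosephosphate isomerase, tpi1, which interconverts the products of aldolase, had 155 (0.2499%), 58 (0.179%), 51 (0.197%) and 60 (0.239%) reads in the same order of libraries, with no separation of the 37 °C from the 30 °C libraries.

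Glyceraldehyde-3-phosphate dehydrogenase, which makes the first NADH-yielding oxidation of the pathway, has a pair of genes here, tdh1 and gpd3. Reads of tdh1 were 900 (1.45%) in replicate 1 and 117 (0.362%) in replicate 2 at 30 °C, 246 (0.948%) in L972 at 37 °C and 300 (1.20%) in prp2-1. Both 37 °C values lay between the 30 °C replicates, which differed from each other more than either differed from the 37 °C libraries.

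The gpd3 gene had few reads at 30 °C, 16 (0.0258%) and 4 (0.0124%). It had 31 (0.119%) in L972 at 37 °C and 82 (0.327%) in prp2-1, both above both 30 °C libraries. The coding sequences of tdh1 and gpd3 are identical at 93.0% of 1011 aligned positions, with a longest shared run of 203 nt, so short reads of one could be placed on the other. In 114 of the 133 gpd3 reads the start lay at the most used base of gpd3 itself.

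Phosphoglycerate kinase, pgk1, which makes the first ATP of the pathway, had 192 (0.310%), 32 (0.0990%), 74 (0.285%) and 137 (0.546%) reads. Phosphoglycerate mutase, gpm1, had 199 (0.321%), 66 (0.204%), 44 (0.1695%) and 63 (0.251%). The gpm1 share in L972 at 37 °C was the lowest of the 4, and the pgk1 share was lowest in 30 °C replicate 2.

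Enolase, eno101, had 147 (0.237%), 49 (0.152%), 48 (0.185%) and 69 (0.275%) reads. Pyruvate kinase, pyk1, which makes the last ATP and pyruvate, had 107 (0.173%), 90 (0.278%), 55 (0.212%) and 87 (0.347%). It was the only member with a higher share in 30 °C replicate 2 than in replicate 1.

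Pyruvate decarboxylase, pdc101, which makes acetaldehyde from pyruvate, had 247 (0.398%), 86 (0.266%), 95 (0.366%) and 150 (0.598%) reads. Alcohol dehydrogenase, adh1, which reduces acetaldehyde to ethanol, had 628 (1.01%) and 229 (0.708%) reads at 30 °C, 576 (2.22%) in L972 at 37 °C and 640 (2.55%) in prp2-1. The 37 °C libraries lay above the 30 °C ones for adh1 and gpd3, and for no other member did both 37 °C libraries exceed both 30 °C libraries.

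**Figure D2:**
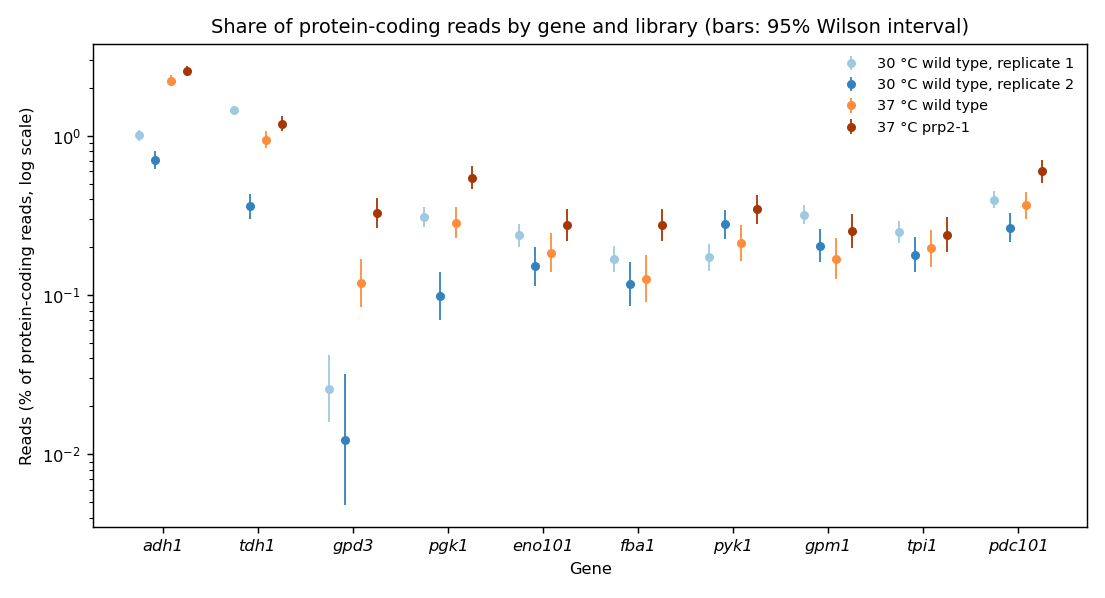
Reads of each gene as a percentage of protein-coding reads (log scale) in the 4 libraries, with 95% Wilson intervals. Both 37 °C libraries lie above both 30 °C libraries for adh1 and gpd3, and tdh1 ranges from 0.362% to 1.45% between the 30 °C replicates.

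Per kilobase of gene, as RPKM computed over protein-coding reads, adh1 ranged from 4433 in replicate 2 to 15975 in prp2-1. It was the protein-coding gene with the most reads in both 37 °C libraries, the third in 30 °C replicate 1 and the fourth in replicate 2. On the same RPKM scale, tdh1 ranged from 2484 to 9959, gpm1 from 2143 to 4056 and tpi1 from 1875 to 2611. The other 6 genes lay between 63.8, for gpd3 in 30 °C replicate 2, and 3330, for pgk1 in prp2-1. By read count gpd3 ranked below the first 300 protein-coding genes in both 30 °C libraries, at rank 93 in L972 at 37 °C and at rank 22 in prp2-1.

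Together the 10 genes took 4.35% (95% Wilson interval 4.19 to 4.51) of protein-coding reads in replicate 1 and 2.38% (2.22 to 2.55) in replicate 2. They took 4.83% (4.57 to 5.10) in L972 at 37 °C and 6.61% (6.31 to 6.92) in prp2-1. The 30 °C mean was 3.36% ± 1.39 (SD, n = 2). The 37 °C wild type lay 1.11-fold above replicate 1 and 2.03-fold above replicate 2, so its distance from 30 °C differed with the replicate it was set against. As shares of all aligned reads the 10 genes took 2.18% and 1.70% at 30 °C, 3.89% at 37 °C in L972 and 4.91% in prp2-1. On that base the 37 °C wild type lay 1.79-fold above replicate 1 and 2.29-fold above replicate 2.

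Differences across all genes were tested with limma on log2 shares with 0.5 reads added, over 855 protein-coding genes with at least 40 reads. The spread came from the 2 libraries at 30 °C alone, with 1 residual degree of freedom, and each lone 37 °C library was assumed to vary like them. Between the 37 °C and 30 °C wild types limma called 14 genes (1.64% of those tested), 1 higher (0.117%) and 13 lower (1.52%) at 37 °C, and 1 of the 10 members. That member was gpd3, with a log2 difference of 2.66 (SE 0.68, limma adjusted p = 0.00942), and it was the only gene called higher. The gpd3 call was lost in 4 of 7 other settings, with adjusted p between 0.00654 and 0.442. It was 0.275 with identical alignments counted once, 0.442 with 2 reads added, 0.255 with voom and 0.0899 with median-ratio scaling. The adh1 difference was 1.39 (SE 0.95, limma adjusted p = 0.56) and the other 8 lay between -0.59 for gpm1 and 0.70 for pgk1. Of the 10 log2 differences 5 were above 0, with a median of 0.07 against 0.11 over all genes. Median-ratio scaling shifted the median of all genes to -0.003 and that of the members to -0.04, with 5 of 10 still above 0.

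Between prp2-1 and the 37 °C wild type, limma called 0 of 855 genes (0% of those tested), with 53 at an unadjusted p under 0.05, and the voom form of limma also called 0. All 10 members had a higher share in prp2-1, with a median log2 difference of 0.64, against -0.07 over all genes and 48.3% of all genes higher. Assigning reads by their 5′ ends left 9 of 10 higher, and with median-ratio scaling 10 of 10 were higher, with medians of 0.74 for the members and 0.04 for all genes. The largest difference was that of gpd3, 1.44 (SE 0.78, limma adjusted p = 0.904), followed by fba1 at 1.10 (SE 0.88, limma adjusted p = 0.97) and pgk1 at 0.93 (SE 0.92, limma adjusted p = 0.97).

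As ratios of raw shares with intervals for counting error, prp2-1 stood to the 37 °C wild type at 2.74 for gpd3 (95% interval 1.81 to 4.14), 2.16 for fba1 (1.43 to 3.28) and 1.92 for pgk1 (1.44 to 2.54). The lowest ratio was 1.15 for adh1 (1.03 to 1.29), and only for tpi1 (1.22, from 0.84 to 1.77) did the interval include 1. For the sum of the 10 genes the ratio was 1.37 (1.27 to 1.47). Within each of the 6 sequencing cells that both libraries shared, the sum was higher in prp2-1, by 1.23 to 2.15 percentage points. These cells read the same libraries and are not replicates.

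The wild-type replicates at 30 °C also differed by more than counting error. Replicate 2 stood to replicate 1 at 0.55 (0.51 to 0.59) for the sum, at 0.25 (0.21 to 0.30) for tdh1, at 0.32 (0.22 to 0.46) for pgk1 and at 1.61 (1.22 to 2.14) for pyk1. The interval excluded 1 in 8 of 10 genes. On the log2 scale the replicates differed from each other more than prp2-1 did from the 37 °C wild type for the sum and for 6 of the 10 genes, the exceptions being gpd3, fba1, pyk1 and pdc101. As shares of all aligned reads the log2 differences of the sum were close in size, -0.36 between the replicates and 0.33 for prp2-1.

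**Figure D3:**
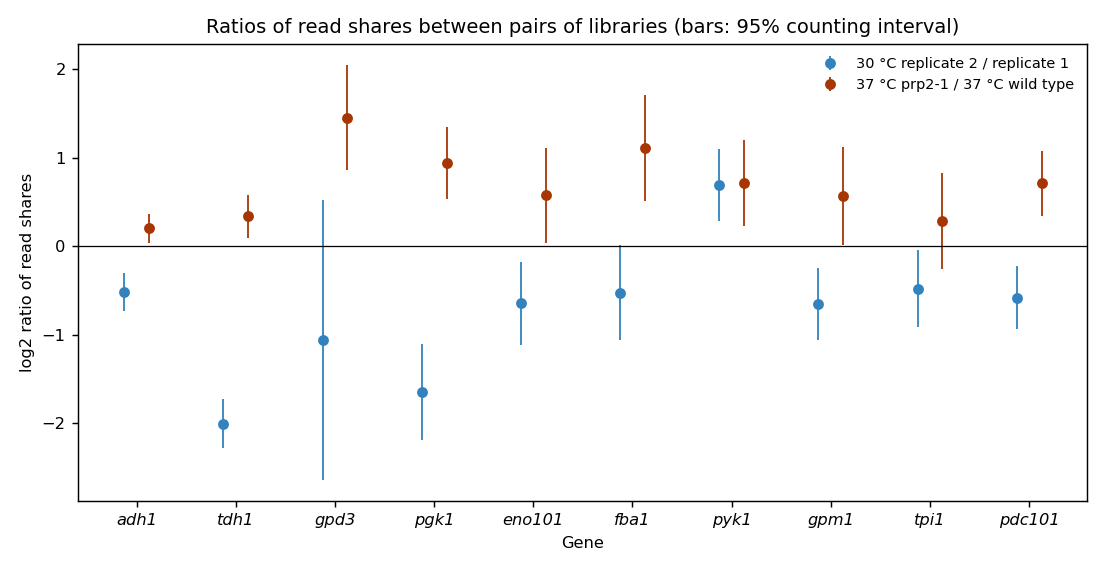
Log2 ratios of read shares for 30 °C replicate 2 over replicate 1 and for prp2-1 over the 37 °C wild type, by gene, with 95% counting intervals. The 10 prp2-1 ratios lie above 0 and 9 of the 10 replicate ratios below it, down to -2.00 for tdh1.

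How reads of these genes began was compared next, as the share starting within 50 nt of the annotated start. Pooled over the 10 genes it was 66.0% in replicate 1, 78.4% in replicate 2, 90.8% in L972 at 37 °C and 89.2% in prp2-1. Pooled reads of other protein-coding genes without introns and with at least 10 reads had 47.4%, 54.2%, 53.3% and 52.6%. These genes were longer, with median lengths between 2459 and 3005 nt against 1527.5 nt for the members.

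By gene, adh1 reads began at the start in 76.3%, 83.4%, 97.6% and 95.5% of cases in the same order of libraries. For fba1 the shares were 33.3%, 73.7%, 90.9% and 79.7%, and for pyk1 48.6%, 80%, 80% and 81.6%. The eno101 shares were the lowest of the members at 37 °C, 66.7% in both libraries, after 40.1% and 34.7% at 30 °C. In fba1 and pyk1 the second 30 °C replicate stood closer to the 37 °C libraries than to replicate 1.

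Fisher's exact test (two-sided, Benjamini-Hochberg adjusted over all genes with at least 10 reads in both libraries) compared pairs of libraries, not conditions. For the 37 °C wild type against 30 °C replicate 1 it called 22 of 597 genes (3.69%) for read starts, 3.52% of the genes higher and 0.168% lower at 37 °C. It called 7 of the 10 members, all with more reads from the start at 37 °C. These were adh1, tdh1, pgk1, eno101, fba1, pyk1 and pdc101. In tdh1, pgk1 and pdc101 the shares were 86.2%, 85.1% and 86.3% in L972 at 37 °C and 69.6%, 50.5% and 59.5% in replicate 1. Replicate 2 had 80.3%, 78.1% and 70.9%, nearer to the 37 °C wild type in tdh1 and pgk1. The members have more reads than most genes, with medians of 173.5 and 53 reads in the 2 libraries against 19 and 16 for other genes without introns, so smaller differences could be called in them. The largest difference was in fba1, 57.6 percentage points (95% Newcombe interval 40.3 to 67.8, Fisher's exact test, adjusted p = 9.3e-07). The eno101 call, 66.7% against 40.1%, was lost in 3 of 6 other settings, with adjusted p between 0.0141 and 0.116.

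The 30 °C replicates differed too: 12 of 717 genes (1.67%) were called, and 3 of the 9 members tested, fba1, pyk1 and gpm1, all with more reads from the start in replicate 2. The gpm1 share was 98.5% against 79.9% (Fisher's exact test, adjusted p = 0.00602), and that of pyk1 80% against 48.6% (adjusted p = 0.00128). Between prp2-1 and the 37 °C wild type 1 of 410 genes (0.244%) was called, pss1, named here after its value was seen, and none of the 10 members. The pooled difference of the members was -1.62 points (-3.79 to 0.60).

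The 3′ ends of the reads lay mostly in the body of these genes at 30 °C, and nearer to the gene end at 37 °C. Among reads that began at the start of adh1, the median 3′ end lay 498 nt and 615 nt into the gene at 30 °C and 1275 nt and 1252 nt at 37 °C, of 1598 nt in all. For tdh1 it lay at 391 and 577.5 nt at 30 °C, and at 1140.5 and 1092 nt at 37 °C, of 1457 nt. For gpm1, with 791 nt the shortest of the 10, it lay at 387, 541, 756 and 751.5 nt, and in both 37 °C libraries that was over 95% of the gene. The members with the least advanced medians at 37 °C, L972 then prp2-1, were pgk1, at 50.8% and 59.5% of its length, pyk1, at 54.8% and 45.2%, and pdc101, at 65.5% and 50.9%. For every member both 37 °C medians lay beyond both 30 °C medians. Read spans moved the same way in all protein-coding genes, and their part in this result was not tested.

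**Figure D4:**
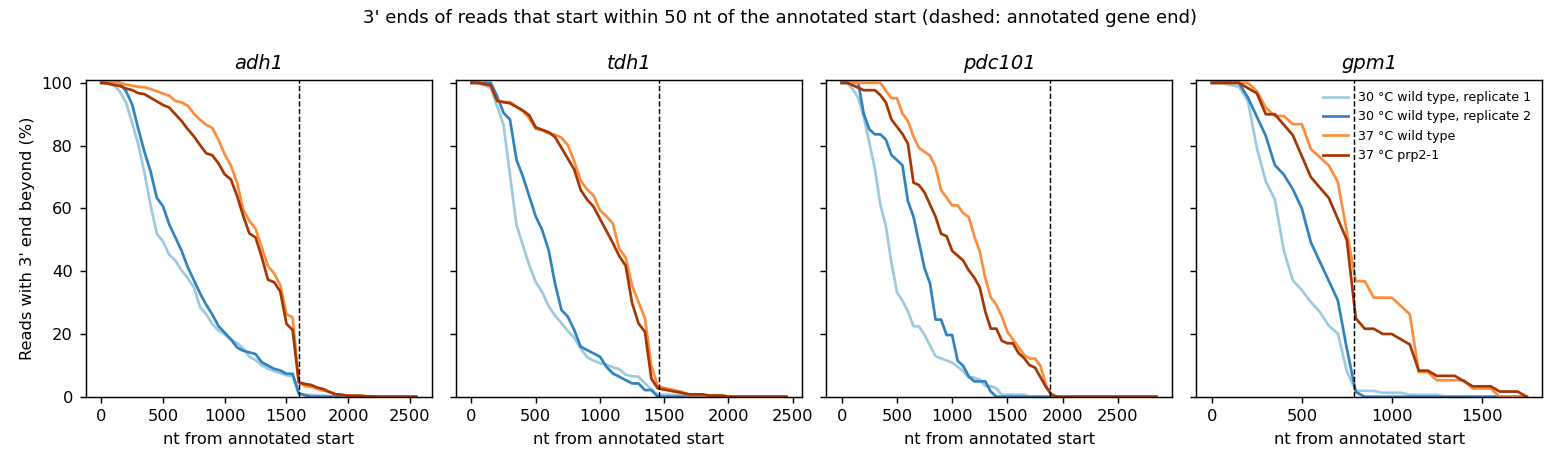
Percentage of reads from the annotated start whose 3′ end lies beyond each distance, for adh1, tdh1, pdc101 and gpm1 in the 4 libraries, with the annotated gene end dashed. The 37 °C curves lie mostly to the right of the 30 °C curves, though some cross near the start. In gpm1, 39.5% of the L972 and 28.3% of the prp2-1 reads shown end past the gene at 37 °C.

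A read was counted in the body when its 3′ end lay over 100 nt before the annotated gene end. The pooled body share of the 10 genes was 87.1% in replicate 1, 87.8% in replicate 2, 70.2% in L972 at 37 °C and 73.2% in prp2-1, with a 30 °C mean of 87.4% ± 0.51 (SD, n = 2). In single sequencing cells it ran from 84.7% to 93.7% at 30 °C and from 64.1% to 76.9% at 37 °C, with no overlap. Cells of a library are not replicates of its condition. Pooled alike, reads of other genes without introns and with at least 10 reads had body shares of 87.9%, 89.1%, 88.3% and 88.5%. By pooled reads the members thus lay close to them at 30 °C and below them at 37 °C. The median by gene was 85.3%, 92.1%, 74.5% and 74.7% for members with at least 10 reads. For the other genes it was 93.2%, 95.2%, 92.3% and 92.3%, above the members in every library. The other genes were also longer, and the part of length was not tested.

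For the body share of the 37 °C wild type against replicate 1, 16 of 597 genes (2.68%) were called, 2.51% lower and 0.168% higher at 37 °C, and 4 of the 10 members, all lower. The body share was 27.3% against 72.4% in gpm1 (Fisher's exact test, adjusted p = 5.5e-06) and 52.9% against 91.0% in tpi1 (adjusted p = 3.5e-06). Replicate 2 at 30 °C had body shares of 69.7% in gpm1 and 72.4% in tpi1, so for tpi1 the distance from 30 °C was smaller against replicate 2. In tdh1 it was 71.5% against 92.0% (Fisher's exact test, adjusted p = 6.5e-13). For adh1 it was 68.4% against 87.3% (Fisher's exact test, adjusted p = 6.5e-13). In replicate 2 these shares were 95.7% in tdh1 and 88.6% in adh1. With identical alignments counted once, the adh1 difference of -18.9 points became -5.63 points and the call was lost (Fisher's exact test, adjusted p = 0.349).

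The share in fba1 was 87.9% in L972 at 37 °C against 71.4% in replicate 1, a difference in the other direction that was not called (Fisher's exact test, adjusted p = 0.517). Between the 30 °C replicates 9 of 717 genes (1.26%) were called for the body share, and none of the 9 members tested. The tpi1 difference of -18.6 points between these replicates (Fisher's exact test, adjusted p = 0.0845) was called when only genes with at least 20 reads were tested (adjusted p = 0.0388). Between prp2-1 and the 37 °C wild type 0 of 410 genes (0%) were called, with 9 at an unadjusted p under 0.05, and 0 members. The pooled difference was 3.05 points (95% Newcombe interval -0.24 to 6.37), an interval that includes 0.

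**Figure D5:**
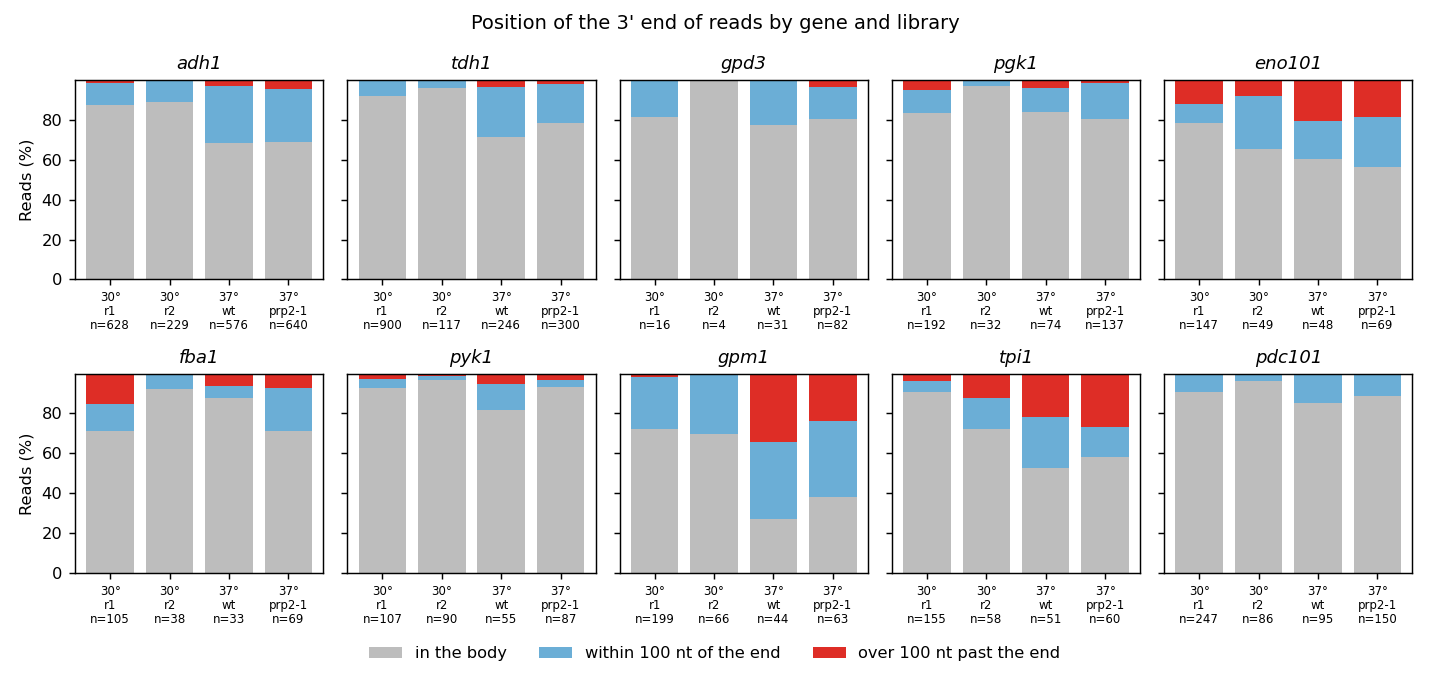
Position of the 3′ ends of reads by gene and library: in the body, within 100 nt of the annotated gene end, or over 100 nt past it, as a percentage of the gene's reads (n under each bar). At 37 °C, ends past the gene are most frequent in gpm1, tpi1 and eno101, while in 30 °C replicate 1 fba1 is highest at 15.2%. They make up 34.1% of gpm1 reads in L972 at 37 °C against 1.51% in 30 °C replicate 1.

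Reads that ended over 100 nt past the gene made up 2.60% of members' reads in replicate 1, 1.69% in replicate 2, 5.75% in L972 at 37 °C and 5.55% in prp2-1. Among reads that reached the last 100 nt of the gene or went beyond it, the shares past the end were 20.1%, 13.8%, 19.3% and 20.7%, but single members differed on that base. It was 5.45% and 0% at 30 °C and 46.9% and 38.5% at 37 °C in gpm1, and 53.3% and 0% at 30 °C and 50% and 25% at 37 °C in fba1, from as few as 3 reads in a library. In tpi1 the share on that base was 42.9% and 43.75% at 30 °C and 45.8% and 64% at 37 °C. The counts below are over all reads of a gene. In gpm1, 3 of 199 and 0 of 66 reads at 30 °C and 15 of 44 and 15 of 63 reads at 37 °C ended past the gene. In tpi1 the counts were 6 of 155, 7 of 58, 11 of 51 and 16 of 60, and in eno101 18 of 147, 4 of 49, 10 of 48 and 13 of 69.

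At the other extreme was pdc101, where 1 of 247 reads in replicate 1 ended past the gene and 0 of 86, 0 of 95 and 0 of 150 in the other libraries. This zero over 150 reads of prp2-1 has an upper Wilson limit of 2.50%. For adh1 the shares past the gene were 1.43%, 0.44%, 3.30% and 4.53%. For fba1 replicate 1 was the highest, at 15.2% (16 of 105), while replicate 2 had 0 of 38 and the 37 °C libraries 6.06% and 7.25%.

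For ends past the gene in L972 at 37 °C against replicate 1, 13 of 597 genes (2.18%) were called and 3 of the 10 members. In gpm1 the share was 34.1% against 1.51% (Fisher's exact test, adjusted p = 2.6e-07) and in tpi1 21.6% against 3.87% (adjusted p = 0.0184). The tdh1 share was 3.66% against 0.44% (Fisher's exact test, adjusted p = 0.0178), a call lost with a window of 200 nt (0.136) and with reads from the start alone (0.346). Between the 30 °C replicates 8 of 717 genes (1.12%) were called and 0 of 9 members. Between prp2-1 and the 37 °C wild type 0 of 410 (0%) were called, with 8 at an unadjusted p under 0.05, and 0 of 10 members. The pooled difference there was -0.19 points (-1.94 to 1.48).

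The farthest 3′ ends lay 951 nt past tpi1, 918 nt past gpm1 and 675 nt past pgk1. The next gene downstream of tpi1 on the same strand is pog1, 245 nt away, and 30 of the 40 tpi1 reads that ended past the gene reached it. No read of the other 9 genes reached an annotated protein-coding gene on its strand.

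Certain single positions held the 3′ ends of many reads. The lines below show, for the 9 members with such a position in at least 3 libraries, the 15 bases up to and including the most frequent 3′ end in capitals and the next 15 bases in lower case, from the ASM294v3 genome on the gene's strand. For gpd3 no position met this rule.
fba1 (II:1689331-1689360, plus strand): AGCCCAACAAGAAGAagttcgaccctcgtg
tpi1 (III:940478-940507, plus strand): TGAGCAAGCTCAAGAggttcacgctgagat
tdh1 (II:2807744-2807773, plus strand): TTTTATCGATCTTGAatacatggcctacat
pgk1 (II:4158657-4158686, minus strand): TCCTTAACGGTATGAagattggtgactctc
gpm1 (I:5173884-5173913, minus strand): AACTCATTTCTATGAtgttgtataatgcaa
eno101 (II:2203178-2203207, plus strand): AAAAAAAAAAAAAAAgaacagcattaaagt
pyk1 (I:3845807-3845836, minus strand): GTGAGGAGGGTAAGAacatcaagatcatct
pdc101 (I:102968-102997, minus strand): TCCCCGGTCCCATTAgcgctgtcatctccc
adh1 (III:1592875-1592904, plus strand): AATCCCATCCTTTAAtttctttcaaagtag

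The adh1 position is the last base of the annotated gene, and 204 adh1 reads ended there, 36 and 17 at 30 °C, 80 in L972 at 37 °C and 71 in prp2-1. They had 34 distinct starts. A further 75 adh1 reads ended 100 nt earlier, of which 2 and 1 were at 30 °C and 30 and 42 at 37 °C. Lying exactly at the limit of the end window, these 75 reads were counted within 100 nt of the gene end and not in the body. Another 28 reads ended at a base 323 nt before the gene end.

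In eno101, 15 reads from all 4 libraries and with 13 distinct starts ended at 1 base 540 nt past the gene. That base is the last of a run of 17 A in the genome. These 15 reads, 6, 2, 2 and 5 by library, are among the 45 eno101 reads counted past the gene. The other 7 positions lay inside the gene, from 35 nt before its end in gpm1 to 1293 nt before it in tdh1, with 10 to 28 reads each. The tdh1 position held 28 reads (10, 2, 6 and 10 by library) with 3 distinct starts, and the pyk1 position 23 reads with 2 distinct starts. Reads with 1 start and 1 end cannot be told apart from copies of a molecule.

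In 6 of the 9 genes the reads ended on GA. The last bases were looked at after these sequences were seen. Over all 3′ ends in the bodies of the 10 genes, 11.5%, 8.89%, 21.2% and 25.6% by library were on GA, against 5.91% of body positions. Other genes without introns had 12.02%, 12.4%, 22.3% and 25.2%, against 6.14% of positions, so this was shared with other genes. It was higher in both 37 °C libraries than in both 30 °C libraries.

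The gpd3 intron, 543 nt long at II:578182-578724 on the plus strand, lies in the 5′ leader. Of reads that crossed it, 8 of 10 and 2 of 3 were spliced at 30 °C, 16 of 27 (59.3%) in L972 at 37 °C and 35 of 71 (49.3%) in prp2-1. The difference between prp2-1 and the 37 °C wild type was -9.96 points (95% Newcombe interval -29.7 to 11.8), which is within counting error.

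Of 47 other genes of sugar uptake, glycolysis, fermentation and neighbouring pathways, 42 were found in the annotation by name, and 20 had enough reads for limma. None of the 20 was called in either comparison. In prp2-1 against the 37 °C wild type 13 of the 20 were higher, with a median log2 difference of 0.38 against -0.07 over all genes. In the 37 °C against the 30 °C wild type 15 were higher, with a median of 0.35 against 0.11. The 3 with the most reads were atd1, pfk1 and pgi1. The aldehyde dehydrogenase gene atd1 had 135, 284, 79 and 227 reads, so that its share was highest in prp2-1, at 0.905%, and next in 30 °C replicate 2, at 0.879%. The phosphofructokinase gene pfk1 had 106, 71, 48 and 57 reads, and the glucose-6-phosphate isomerase gene pgi1 102, 26, 60 and 82.

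The genes whose log2 share over the 4 libraries, centred on its mean, lay nearest to that of the summed members, of 845 other genes, were eft201 at a Euclidean distance of 0.22, ppe1 at 0.23 and cct3 at 0.24. Of the members, pdc101 was nearest to the sum, at 0.40, and gpd3 farthest, at 2.66. This likeness rests on 4 libraries and on few reads. By library, eft201 had 56, 19, 31 and 38 reads, ppe1 40, 11, 18 and 20, and cct3 18, 5, 8 and 9.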

How the data were processed

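The 4 deposited files hold 1 line per aligned read, with chromosome, position, strand and aligned blocks and no normalization. Their score column, as deposited, is constant and was not used. Per the labels' protocols, polyadenylated and ribosomal RNA were depleted, an adaptor with random bases was ligated to the 3′ ends, and template-switched cDNA was amplified by low-cycle PCR and sequenced on a Pacific Biosciences instrument. cutadapt 1.8 was used, per the submitters' processing notes. The aligner and genome build are not given in the sources used here. The random bases are not in the deposited lines, so copies made by PCR could not be told from separate molecules and may remain. Intervals cover counting error only.

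Reads were assigned on their strand to RefSeq ASM294v3 genes with Python 3.11.15, which may not be the authors' build. Shares have 95% Wilson intervals and differences Newcombe intervals. Start and end windows were 50 and 100 nt. Fisher's exact tests used genes with 10 or more reads in each of the 2 libraries, and limma 3.58.1 in R 4.3.3 genes with at least 40 reads. Adjusted p under 0.05 was called. Both tests were tested on simulated data. For the prp2-1 pair, Fisher's exact test called 46 of 82 genes given a 50-point change. It called 105 of 143 for the replicates and 78 of 119 for temperature. Unchanged genes called numbered 0, 3 and 1 in that order. Of genes with shares below the median and a 4-fold temperature change, limma called 75 of 156, and it called 9 unchanged genes. A gene that was not called can therefore still differ. No deposited column holds counts per gene, so a count model was not used. Fisher's exact p-values cover read-counting error between 2 libraries, with reads taken as independent, and limma's p-values the spread between the 2 libraries at 30 °C, which may be technical in part.

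All 10 members were named. Of the other pathway genes, any called gene and the 3 with the most reads were named, with the 3 genes most like the sum of the members, and neighbours that reads reached. Members, lists and rules were chosen with earlier results of these data known.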

Additional observations from a re-analysis of the deposited data

How the results depend on the processing

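No called difference reversed under any alternative run. The 30 °C values with either replicate left out ranged from 2.38% to 4.35% for the read share, 87.1% to 87.8% for the body, 1.69% to 2.60% past the gene and 66.0% to 78.4% for starts. limma was not run without a replicate, since no residual degrees of freedom would be left. No paired analysis was possible because the groups share only replicate number 1, which names libraries and pairs none.

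As shares of all aligned reads, the 10 genes took 1.94% at 30 °C (mean), 3.89% in L972 at 37 °C and 4.91% in prp2-1. The 37 °C shares, wild type then prp2-1, were 3.70% and 5.22% with identical alignments counted once and 5.41% and 7.26% by 5′ end. Body shares, in the order 30 °C mean, 37 °C wild type and prp2-1, were 91.5%, 80.5% and 82.3% with a window of 50 nt and 82.5%, 61.8% and 66.1% with 200 nt. With identical alignments counted once the body shares at 37 °C were both 75.5%. With reads from the start alone the body shares were 93.0% at 30 °C and 75.4% in prp2-1, by 5′ end 86.7% at 30 °C, and without adh1, an alternative added after seeing the data, 75.9% in prp2-1. Shares past the gene at 30 °C were 2.90% with 50 nt, 1.38% with 200 nt and 0.81% with reads from the start alone. In L972 at 37 °C they were 7.63% with identical alignments counted once, 4.31% with 200 nt and 7.83% without adh1. In prp2-1 they were 7.16%, 4.22% with 200 nt and 4.47% with reads from the start alone. Start shares at 37 °C were 87.6% and 85.4% with identical alignments counted once and 85.1% and 85.3% without adh1.

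Counts of called genes moved by over 1.5 times as follows. Between 30 °C replicates, body calls went from 9 to 15 (200 nt) and 14 (at least 20 reads), calls past the gene from 8 to 15 (50 nt) and 1 (200 nt), and start calls from 12 to 23 (at least 20 reads). For the 37 °C wild type against replicate 1, body calls went from 16 to 29 (reads from the start alone), calls past the gene from 13 to 8 (200 nt) and start calls from 22 to 40 (at least 20 reads). The 1 start call of prp2-1 became 0 with identical alignments counted once, repeated read names left out, 5′ end assignment or a window of 100 nt. The 14 limma calls for temperature became 1 with identical alignments counted once, 0 with 2 reads added, 2 with voom and 3 with median-ratio scaling. The 0 limma calls for prp2-1 became 1 with repeated read names left out and 1 with at least 10 reads. The causes were not tested. Depth limits gpd3 most, with 4 reads in 30 °C replicate 2.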

Other observations

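Reads on the opposite strand of the 10 genes, with at least 20 aligned bases in the gene, numbered 16 in 30 °C replicate 1, 31 in replicate 2, 15 in L972 at 37 °C and 7 in prp2-1. Of these 69 reads, 29 lay on adh1, 12 on tdh1 and 12 on pdc101, and fba1 had none. By library the adh1 antisense reads numbered 12, 9, 7 and 1. Replicate 2 had the most such reads although it had the fewest sense reads of these genes, 769.

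Full-length molecules, which began within 50 nt of the annotated start and ended within 100 nt of the gene end, made up 3.26% of members' reads in 30 °C replicate 1, 5.85% in replicate 2, 21.2% in L972 at 37 °C and 18.0% in prp2-1. In adh1 the shares were 4.78%, 6.55%, 27.8% and 24.8%, and in gpm1 15.1%, 30.3%, 34.1% and 36.5%. In pyk1 they were 0%, 1.11%, 7.27% and 1.15%. The end window takes in the adh1 base 100 nt before the gene end, where 2, 1, 30 and 42 reads by library ended. How many of those reads also began at the start was not counted.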
